A study of Mus musculus with 6 samples.

Results

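Lipid-associated macrophage genes were examined in CT26 tumors with and without incomplete radiofrequency ablation (iRFA). They are 10 genes listed by symbol, with no cutoff on a measured value but with earlier results of these data known: Trem2, Tyrobp, Msr1, Cd36, Apoe, Fabp5, Plin2, Spp1, Gpnmb and Cd9. All 10 were found among the 32110 genes of the files. All 10 also passed the filter on low values, a mean of at least 0.5 FPKM (read fragments divided by transcript length and library size), which 15560 genes passed in all. CT26, a mouse colon carcinoma cell line, was injected into the skin of the right flank of male wild-type BALB/c mice. The untreated group held 3 tumors (untreated replicates 1 to 3). The iRFA group held 3 tumors (iRFA replicates 1 to 3) taken 3 days after an electrode set to 70 °C had heated the tumor from its middle, so that a part of it stayed alive. Each tumor gave 1 bulk RNA library. The age of the mice is not given in the sources used here, and since nothing names the mouse behind each library, p-values measure the spread between these libraries only.

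Macrophages that take up lipid from dying cells or lipoproteins switch on a shared set of genes. TREM2 is a surface receptor for lipids and apolipoproteins that signals through the adaptor TYROBP (DAP12). Scavenger receptors such as MSR1 and CD36 bring in modified lipoprotein and fatty acids, FABP5 carries fatty acids in the cytosol, PLIN2 coats the lipid droplets that store them, and APOE carries cholesterol out. Osteopontin (Spp1) is a secreted protein, GPNMB a glycoprotein of lysosomes and the cell surface, and CD9 a tetraspanin of the membrane. Macrophages are not the only source of these transcripts. CD9, PLIN2 and FABP5 are also made by epithelial cells, and CD36 by fat cells, vessels and platelets.

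The libraries did not separate by group. Over the genes tested, untreated replicate 3 had a Pearson correlation of 0.983 to 0.987 with the iRFA libraries and of 0.801 to 0.807 with the other untreated libraries, a description of libraries rather than a test. It lay nearer to the iRFA mean than to untreated replicates 1 and 2 in 84.1% of genes tested, and in 8 of the 10 lipid-associated genes. Epithelial colon markers summed to 725 and 680 FPKM in untreated replicates 1 and 2 and to between 2.15 and 3.87 FPKM in the other 4 libraries. These markers were therefore at a high level in 2 libraries only, and their cell source was not tested. A wrong label on any untreated library and untreated tumors that differed from each other cannot be told apart from the labels and files. Nor can it be told whether untreated replicate 3 or untreated replicates 1 and 2 are the unusual libraries. Every untreated mean and fold change below rests on these labels. Core macrophage markers summed to 1587, 1570 and 3104 FPKM untreated and to 3783, 3438 and 3800 FPKM after iRFA. Read counts were not used here. Steps between values of at most 0.3 FPKM placed the relative depth of the libraries between 1.00 and 1.10. Only a limited range of ratios to untreated replicate 1 was searched, so a larger difference could have been missed.

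Of the 10 genes, 7 had a higher and 3 a lower mean after iRFA on the log2 scale, and 0 passed the test. Among all genes tested, 0% passed as higher and 0% as lower (limma on log2(FPKM + 1), two-sided, Benjamini-Hochberg adjusted p under 0.05). At an unadjusted p under 0.05, 3 of the 10 were higher and 0 lower, beside 7.94% and 6.75% of all genes tested. Trem2, Tyrobp, Cd36 and Plin2 had their lowest iRFA value above their highest untreated value, which makes 4 of 10 beside 11.4% of all genes tested, and 0 were lower in this way, beside 10.5%. The median log2 fold change was 0.61 over the 10 genes and 0.02 over all genes tested. Without untreated replicate 3, 5 of the 10 were called higher and 2 lower, where 33.9% and 30.3% of all genes were called, and 6 were higher and 2 lower without overlap, beside 41.0% and 36.5%. Fits against untreated replicate 3 alone, here and below, have 1 library in that arm, so their spread comes from the 3 iRFA libraries and the lone library is assumed to vary as they do. In that fit 0 were called, as were 0.00643% of all genes as higher and 0% as lower, and 8 were higher and 1 lower without overlap, beside 25.7% and 28.6%. With 3 tumors against 3, an exact permutation test of a single gene cannot give a two-sided p under 0.1. In bulk tumor RNA, fewer cells of a type and less RNA per cell cannot be told apart.

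**Figure D1:**
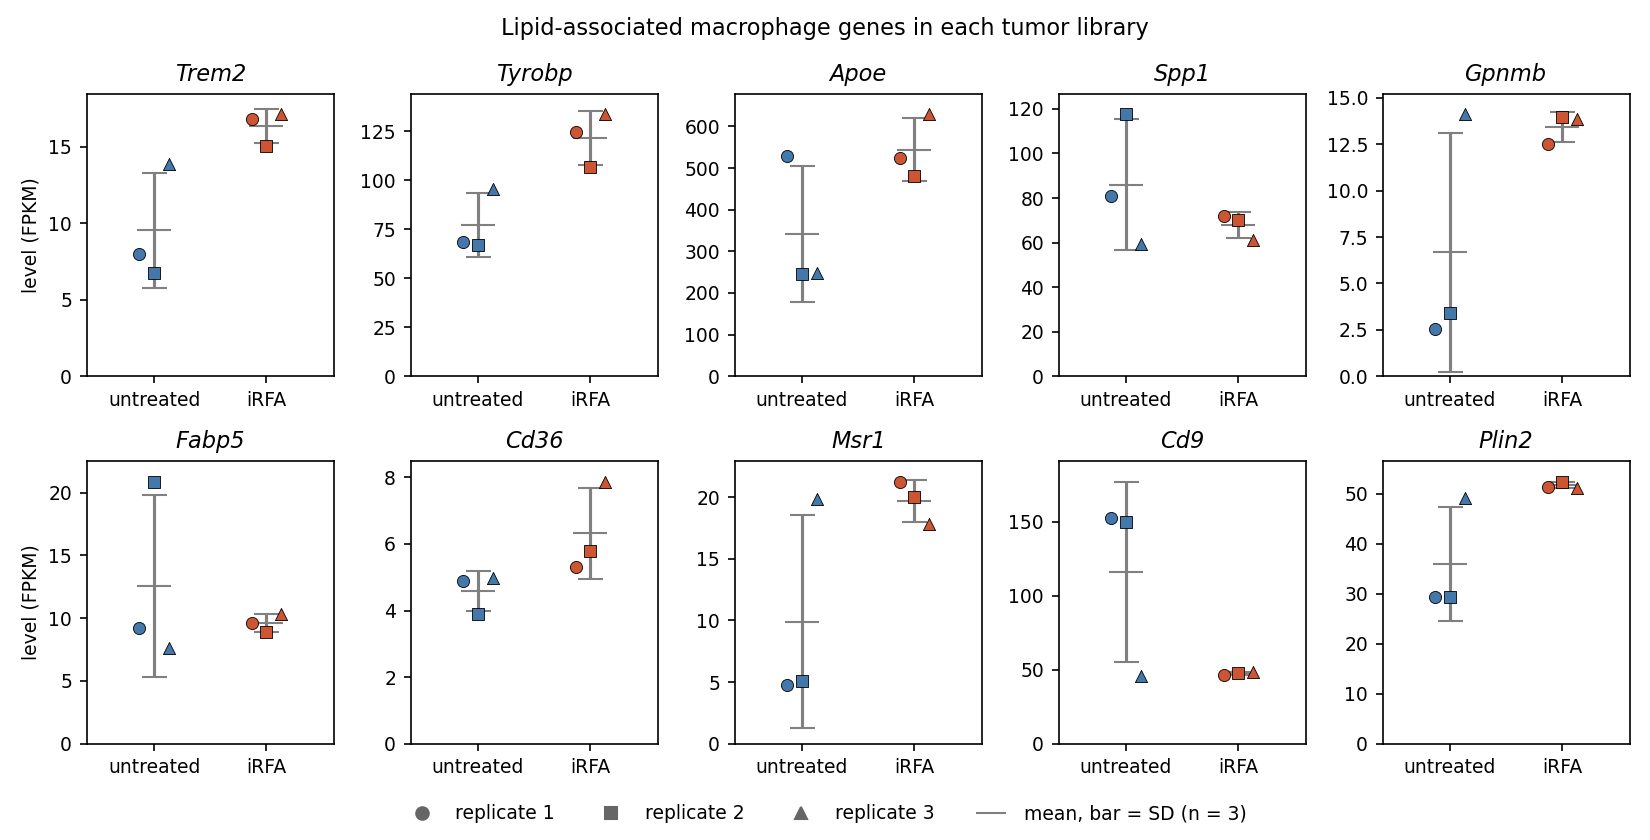
Level of each gene in FPKM (vertical axis, from 0) in untreated and iRFA tumors, with 1 point per library, the mean and the SD of 3 libraries. Untreated replicate 3 lies close to the iRFA libraries for Gpnmb, Msr1, Cd9 and Plin2 and apart from them for Apoe.

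Trem2, the lipid-sensing receptor (chr17:48346401-48354147 on GRCm38, plus strand), was at 7.98, 6.77 and 13.8 FPKM in the untreated tumors 1 to 3 and at 16.8, 15.1 and 17.1 FPKM in iRFA replicates 1 to 3. The groups did not overlap, although untreated replicate 3 stood between the other untreated libraries and the iRFA libraries, at a ratio of 1.09 between the nearest values. The mean was 16.3 ± 1.10 FPKM in the treated tumors and 9.53 ± 3.78 FPKM in the untreated ones (SD, n = 3). On the log2 scale this is a difference of 0.78 with a standard error of 0.25 (limma adjusted p = 0.250). Its promoter is shown because this receptor heads the set. It runs from 250 bases before the start site to 50 after it, at chr17:48346151-48346450 on the plus strand (RefSeq, GRCm38.p6). Capitals mark a CCAAT box, a PU.1 box (GAGGAA, here as its reverse complement) and an AP-1 site (TGANTCA) that begins at −9 from the start site.
Trem2 promoter: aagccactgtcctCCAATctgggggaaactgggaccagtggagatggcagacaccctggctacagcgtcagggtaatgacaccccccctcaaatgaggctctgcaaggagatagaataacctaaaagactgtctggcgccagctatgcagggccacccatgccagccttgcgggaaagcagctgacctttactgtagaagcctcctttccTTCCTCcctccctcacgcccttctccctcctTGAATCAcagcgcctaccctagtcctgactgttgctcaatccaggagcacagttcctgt

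Tyrobp, the adaptor that carries the signal of TREM2 and related receptors into the cell (chr7:30413760-30417585, plus strand), was at 68.5, 66.9 and 95.8 FPKM untreated and at 125, 107 and 134 FPKM after iRFA. As for its receptor, untreated replicate 3 lay between the remaining untreated libraries and the iRFA libraries, and the groups did not overlap. The means were 122 ± 13.7 FPKM after iRFA and 77.1 ± 16.2 FPKM untreated (SD, n = 3). On the log2 scale this is a difference of 0.67 with a standard error of 0.18 (limma adjusted p = 0.250). Per length, Tyrobp was 6.92 to 9.89 times as abundant as Trem2, with both ends of that range in untreated libraries. Without untreated replicate 3, both genes were called higher, with log2 fold changes of 1.05 for Trem2 and 0.83 for Tyrobp (limma adjusted p = 0.000297 and 0.00101). Against untreated replicate 3 alone these were 0.22 and 0.34 (adjusted p = 0.761 for each).

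Partners of the receptor were taken from a list of 24 genes of TREM receptors, other myeloid receptors and signalling proteins. The list also holds the proteases Adam10 and Adam17 and the membrane proteins Ms4a4a, Ms4a6d and Ms4a7. Of 22 tested, 17 had a log2 fold change above 0, 9 were higher and 0 lower without overlap, and 0 passed the test (median 0.40). Ms4a6d and Ms4a7 were among the 9, and Ms4a7 is also a core macrophage marker. Over all genes tested, and so also for the lists that follow, 11.4% were higher and 10.5% lower without overlap, and the median was 0.02. Ms4a6d, a membrane protein of macrophages, was at 23.0, 26.3 and 54.35 FPKM untreated and at 63.2, 55.6 and 65.4 FPKM after iRFA (log2 fold change 0.91, standard error 0.33). Clec5a, a lectin receptor that signals through TYROBP, was at 2.67, 3.17 and 6.70 FPKM and at 8.58, 7.75 and 7.58 FPKM (log2 fold change 0.87, standard error 0.29). Both had the order seen for Trem2, with untreated replicate 3 just under the iRFA libraries. Sirpb1c, a receptor of the signal-regulatory family, also did not overlap (log2 fold change 0.60). Adam10, a protease that sheds TREM2 from the surface, was at 82.1, 80.7 and 46.8 FPKM untreated and at 47.4, 28.8 and 28.5 FPKM after iRFA. Its groups overlapped through untreated replicate 3 and iRFA replicate 1, and those of the signalling adaptor Grb2 overlapped too (log2 fold change 0.36).

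Msr1, the class A scavenger receptor for modified lipoprotein (chr8:39581685-39642673, minus strand), was at 4.73 and 5.06 FPKM in the first and second untreated libraries, at 19.9 FPKM in untreated replicate 3 and at 21.2, 19.99 and 17.8 FPKM after iRFA. Among the 10 genes it alone had its untreated replicate 3 value inside the iRFA range, as 45.7% of all genes tested did. The log2 fold change was 1.20 (SE 0.52, limma adjusted p = 0.250). It was 1.81 without untreated replicate 3 (limma adjusted p = 4.03e-05) and −0.02 without untreated replicates 1 and 2 (adjusted p = 0.980).

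Cd36, the class B scavenger receptor that takes up long-chain fatty acids (chr5:17781690-17888801, minus strand), had the lowest mean level of the 10 in both groups. It was at 4.89, 3.89 and 4.99 FPKM untreated and at 5.30, 5.80 and 7.86 FPKM after iRFA. The groups did not overlap, but the nearest values differed by a ratio of 1.06, and iRFA replicate 3 was the high library. The means were 6.32 ± 1.36 FPKM and 4.59 ± 0.610 FPKM (SD, n = 3). On the log2 scale this is a difference of 0.38 with a standard error of 0.17 (limma adjusted p = 0.250), or of 0.23 without iRFA replicate 3. Markers of other CD36-bearing cells also differed between libraries. Adipocyte markers summed to 62.9, 62.8 and 6.85 FPKM untreated and to 8.37, 23.0 and 33.1 FPKM after iRFA, with 3 of 10 under 1 FPKM in all libraries. Platelet markers summed to 26.1, 29.5 and 36.9 FPKM and to 45.2, 39.3 and 53.5 FPKM, nearly all of it Pf4. Of the 6 platelet markers 3 were under 1 FPKM in all libraries. Of the 4 tested, 2 had a log2 fold change above 0 and 2 one below 0. Endothelial markers summed to 42.7 to 49.5 FPKM and to 38.1 to 52.4 FPKM. The part of these cells in the Cd36 values was not tested.

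Other scavenger receptors did not share a direction. Of 12 tested of 16, 5 had a log2 fold change above 0 and 7 one below 0, 2 were higher and 1 lower without overlap, and 0 passed the test (median −0.23). Cd68, a lysosomal glycoprotein of macrophages, was at 43.1, 46.2 and 91.9 FPKM untreated and at 98.0, 96.4 and 110 FPKM after iRFA (log2 fold change 0.82). The mannose receptor Mrc1 was at 33.0, 37.2 and 45.2 FPKM and at 54.5, 50.3 and 59.4 FPKM (log2 fold change 0.51). Olr1, a receptor for oxidized LDL, ran the other way, at 14.2, 11.98 and 0.638 FPKM untreated and at 0.616, 0.601 and 0.365 FPKM after iRFA. Its groups were kept apart by 1 small step, between untreated replicate 3 and iRFA replicate 1.

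Apoe, the apolipoprotein that carries cholesterol out of macrophages (chr7:19696109-19699188, minus strand), was the most abundant of the 10 in both groups. It was at 529, 246 and 248 FPKM untreated and at 525, 480 and 629 FPKM after iRFA. Its order was not that of the receptors: untreated replicate 1 was inside the iRFA range, and untreated replicates 2 and 3 were low together. The means were 545 ± 76.5 FPKM after iRFA and 341 ± 163 FPKM untreated (SD, n = 3). On the log2 scale this is a difference of 0.76 with a standard error of 0.33 (limma adjusted p = 0.250). It was 0.58 without untreated replicate 3 (limma adjusted p = 0.171) and 1.12 without untreated replicates 1 and 2 (adjusted p = 0.579). Per length, Apoe stood at 1.42, 0.686 and 0.466 times the complement gene C1qa, a macrophage product, in the untreated tumors and at 0.788, 0.810 and 0.940 times after iRFA.

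Receptors and efflux genes that serve APOE split evenly. Of 17 tested of 18, 8 had a log2 fold change above 0 and 9 one below 0, 0 were higher and 1 lower without overlap, and 0 passed the test (median −0.18). Soat1, which esterifies cholesterol for storage, was that gene, at 78.3, 64.5 and 11.9 FPKM untreated and at 10.9, 10.8 and 11.5 FPKM after iRFA (log2 fold change −1.75, standard error 0.70). Lrp1, an endocytic receptor for APOE, was at 94.6, 95.9 and 56.5 FPKM and at 55.9, 59.5 and 56.6 FPKM. The lipid transfer protein Pltp was at 55.2, 57.1 and 29.0 FPKM and at 29.6, 25.9 and 40.2 FPKM. In all of these untreated replicate 3 stood with the iRFA libraries.

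Fabp5, the cytosolic fatty acid carrier (chr3:10012548-10016607, plus strand), was set apart by a single library. It was at 9.22, 20.9 and 7.58 FPKM untreated and at 9.62, 8.91 and 10.3 FPKM after iRFA. Untreated replicate 2 was high, and the other 5 libraries lay between 7.58 and 10.3 FPKM. The log2 fold change of −0.23 (SE 0.36, limma adjusted p = 0.658) became 0.18 without untreated replicate 2 and 0.31 without untreated replicates 1 and 2. Keratinocyte markers, of cells rich in FABP5, were highest in the same library, at a sum of 307 FPKM against 93.4 FPKM in untreated replicate 1 and 2.18 to 4.32 FPKM in the other 4. Krt14 and Krt5, keratins of the basal epidermis, were at 197.5 and 65.7 FPKM there and at 65.2 and 0.875 FPKM in untreated replicate 1. Of the 10 markers 7 were listed at 0 in at least 1 library, and their part in the Fabp5 value was not tested. Transcripts of 5 other genes share at least 200 bases of 90% identity or more with Fabp5, so its level is uncertain, although the 2 of them in the files summed to no more than 1.74 FPKM. Of 9 relatives listed, 4 were in the files and 2 were tested: Fabp4 of fat cells and macrophages (log2 fold change −0.21) and Fabp3 of muscle (−0.44), with overlapping groups and 0 past the test (median −0.33).

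Plin2, the coat protein of lipid droplets (chr4:86648386-86670060, minus strand), was at 29.3, 29.3 and 49.2 FPKM untreated and at 51.4, 52.3 and 51.2 FPKM after iRFA. The groups did not overlap, with untreated replicate 3 under the lowest iRFA library by a ratio of 1.04. The means were 51.6 ± 0.612 FPKM after iRFA, the narrowest relative spread of the 10 genes, and 35.9 ± 11.5 FPKM untreated (SD, n = 3). The log2 fold change was 0.55 (SE 0.22, limma adjusted p = 0.250), with 0.79 when untreated replicate 3 was left out (limma adjusted p = 7.46e-05) and 0.07 against untreated replicate 3 alone (adjusted p = 0.816). Against Plin3, a coat protein found in most cells, Plin2 stood at a ratio of 0.594 and 0.581 in untreated replicates 1 and 2 and of 1.88 to 2.12 in the other 4 libraries. One other annotated gene, Gm12551, shares at least 200 bases with Plin2 at 90% identity or more and was at no more than 0.843 FPKM. The promoter at chr4:86670010-86670309 on the minus strand (RefSeq, GRCm38.p6) is shown because it alone of the 10 promoters matched holds a box of the lysosomal and lipid regulators MITF and TFE (TCACGTG). Capitals mark a CCAAT box, that box at −5, with the hypoxia core ACGTG inside it on both strands, and a GC box (GGGCGG).
Plin2 promoter: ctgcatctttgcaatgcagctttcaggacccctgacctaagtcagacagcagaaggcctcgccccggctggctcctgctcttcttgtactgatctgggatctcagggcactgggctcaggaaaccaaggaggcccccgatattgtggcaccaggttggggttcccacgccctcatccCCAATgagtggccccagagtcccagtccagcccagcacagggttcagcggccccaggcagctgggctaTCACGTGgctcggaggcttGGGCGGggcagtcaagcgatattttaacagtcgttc

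Of 20 tested genes of droplets and triglyceride turnover (23 listed), 6 had a log2 fold change above 0 and 14 one below 0, 2 were higher and 1 lower without overlap, near or under the 11.4% and 10.5% of all genes tested, and 0 passed the test (median −0.30). Abhd5, a co-activator of fat breakdown, was at 4.32, 4.21 and 4.76 FPKM untreated and at 5.36, 5.54 and 5.34 FPKM after iRFA. Ppard, a fatty acid-sensing nuclear receptor, was at 9.49, 11.3 and 14.6 FPKM and at 15.02, 16.3 and 15.1 FPKM. Cideb, a droplet protein of liver and gut, was at 4.56, 3.84 and 0.356 FPKM and at 0.191, 0.132 and 0.149 FPKM. Cideb was low in the 4 libraries in which the ratio of Plin2 to Plin3 was high. Lipa, the lysosomal lipase, ranged from 37.7 to 46.8 FPKM over all 6 libraries, and Acsl4, which activates polyunsaturated fatty acids, was at 65.6 and 62.4 FPKM where Cideb was high and at 21.5 to 23.3 FPKM elsewhere.

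Spp1, the secreted phosphoprotein osteopontin (chr5:104435118-104441050, plus strand), was at 80.8, 118 and 59.4 FPKM untreated and at 72.0, 70.2 and 61.2 FPKM after iRFA. Untreated replicate 2 was the high library and untreated replicate 3 the low one, with the iRFA libraries between them. The log2 fold change was −0.29 (SE 0.25, limma adjusted p = 0.438). It was −0.52 without untreated replicate 3, where the gene was called lower (limma adjusted p = 0.0391), and 0.18 without untreated replicates 1 and 2 (adjusted p = 0.795). The annotated gene Gm42793 overlaps Spp1 on the same strand and was at no more than 0.534 FPKM. Of 9 receptor genes for osteopontin, 6 had a log2 fold change above 0 and 3 one below 0, 1 was higher and 0 lower without overlap, and 0 passed the test (median 0.14). That gene was the integrin Itgav, at 8.89, 9.22 and 12.5 FPKM untreated and at 13.5, 13.9 and 12.7 FPKM after iRFA. The integrins Itgb1 and Itgb5 overlapped (log2 fold changes 0.45 and 0.12).

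Gpnmb, the glycoprotein of lysosomes and the cell surface (chr6:49036546-49070929, plus strand), had the widest relative spread among untreated tumors of the 10 genes. It was at 2.55 and 3.39 FPKM in the first and second untreated libraries, at 14.1 FPKM in untreated replicate 3 and at 12.5, 13.96 and 13.9 FPKM after iRFA. Untreated replicate 3 was above all iRFA libraries. The log2 fold change was 1.22 (SE 0.55, limma adjusted p = 0.250), 1.87 without untreated replicate 3 (limma adjusted p = 7.73e-05) and −0.07 against it alone (adjusted p = 0.892). Melanocytes and osteoclasts also make GPNMB. The 6 melanocyte markers and the 7 markers of osteoclasts and bone each stayed under 1 FPKM in all libraries. Their sums were at most 2.17 and 1.03 FPKM, with Pmel at no more than 0.621 and Dcstamp at no more than 0.418 FPKM. The cell source of the Gpnmb values was not tested. Its promoter, at chr6:49036268-49036567 on the plus strand (RefSeq, GRCm38.p6), is shown for comparison with that of Trem2, since these 2 of the 10 promoters matched hold an AP-1 site, in capitals here at 9 bases past the start site. The MITF and TFE boxes TCATGTG and TCACGTG are not among its letters.
Gpnmb promoter: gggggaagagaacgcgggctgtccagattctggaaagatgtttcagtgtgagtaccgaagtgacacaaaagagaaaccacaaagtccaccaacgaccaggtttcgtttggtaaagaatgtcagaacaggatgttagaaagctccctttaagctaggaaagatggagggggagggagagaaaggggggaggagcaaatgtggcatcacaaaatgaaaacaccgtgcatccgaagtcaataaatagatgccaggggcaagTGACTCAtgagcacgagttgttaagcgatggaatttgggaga

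Lysosomal partners, with the MITF and TFE factors, made a list of 23 tested genes. Of these 17 had a log2 fold change above 0 and 6 one below 0, 7 were higher and 0 lower without overlap, beside 11.4% and 10.5% of all genes tested, and 0 passed the test (median 0.31, against 0.02 over all genes). Ctss, the cathepsin of antigen-presenting cells, was at 337, 321 and 438 FPKM untreated and at 580, 505 and 635 FPKM after iRFA (log2 fold change 0.66). Grn, the lysosomal growth factor progranulin, was at 98.6, 102 and 146 FPKM and at 166, 180.5 and 196 FPKM (0.66). Psap, the precursor of lipid-degrading saposins, was at 584, 561 and 705 FPKM and at 817, 754 and 912 FPKM (0.43). Unlike Gpnmb, these 3 genes kept untreated replicate 3 below the iRFA libraries. Lgals1, a lectin of many cell types, overlapped (0.16).

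Cd9, the tetraspanin (chr6:125460266-125494791, minus strand), was at 152 and 150 FPKM in the first and second untreated libraries, at 45.5 FPKM in untreated replicate 3 and at 46.4, 47.8 and 48.2 FPKM after iRFA. The 4 low libraries lay within 45.5 to 48.2 FPKM. The log2 fold change was −1.08 (SE 0.48, limma adjusted p = 0.250), −1.65 without untreated replicate 3 (limma adjusted p = 8.85e-06) and 0.06 without untreated replicates 1 and 2 (adjusted p = 0.847). The high libraries were the same 2 in which epithelial markers were high, led by Krt19 at 257 and 239 FPKM and Krt8 at 247 and 234 FPKM, against at most 0.155 and 0.122 FPKM elsewhere. Of the 10 epithelial markers, 5 were listed at 0 in at least 1 library. Fibroblast markers summed to 3421, 4017 and 588 FPKM untreated and to 561, 527 and 840 FPKM after iRFA. The part of these cells in the Cd9 values was not tested. An antisense gene, Gm28809, overlaps Cd9 and reached 3.86 FPKM, and the strand setting of the counting is not given in the sources used here. Its promoter at chr6:125494711-125495010 on the minus strand (RefSeq, GRCm38.p6) is shown as that of the gene with the opposite order. Capitals mark its GC boxes, at −81 and −60.
Cd9 promoter: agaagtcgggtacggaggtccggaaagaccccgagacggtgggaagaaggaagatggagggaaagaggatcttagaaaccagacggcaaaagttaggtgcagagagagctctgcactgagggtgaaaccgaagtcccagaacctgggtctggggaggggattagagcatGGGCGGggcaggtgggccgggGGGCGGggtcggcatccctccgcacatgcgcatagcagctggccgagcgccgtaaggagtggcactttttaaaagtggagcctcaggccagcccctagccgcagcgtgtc

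Among all 32851 promoters of this length, searched on both strands, 7.81% hold the AP-1 site, 28.3% the PU.1 box, 37.4% the CCAAT box, 35.7% the GC box, 19.6% the hypoxia core ACGTG and 3.77% each of the MITF and TFE boxes. Of the 10 promoters matched, which belong to 7 of the genes (3 to Apoe and 2 to Spp1), 2 hold the AP-1 site, 4 the PU.1 box, 4 the CCAAT box, 3 the GC box and 1 an MITF and TFE box. A match describes the letters and not a bound site.

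Tetraspanins other than Cd9 had no common direction: of 15 tested, 8 had a log2 fold change above 0 and 7 one below 0, 1 was higher and 1 lower without overlap, and 0 passed the test. Cd63, a tetraspanin of late endosomes, was at 102, 102 and 200 FPKM untreated and at 230, 221 and 218 FPKM after iRFA (log2 fold change 0.80). Cd81, a close relative of CD9, was at 166, 163 and 90.9 FPKM and at 85.9, 91.0 and 87.2 FPKM (−0.61). Cd81 thus had high and low libraries in the order of Cd9, and Cd63 in the order of Trem2. Igsf8, a partner protein of CD9, was the lower gene without overlap (−0.12).

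Over all 8 partner lists, 120 genes were tested, and untreated replicate 3 lay nearer to the iRFA mean in 109 of them. Without that library 48 of the 120 were called higher and 42 lower in limma, beside the 33.9% and 30.3% of all genes given above.

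**Figure D2:**
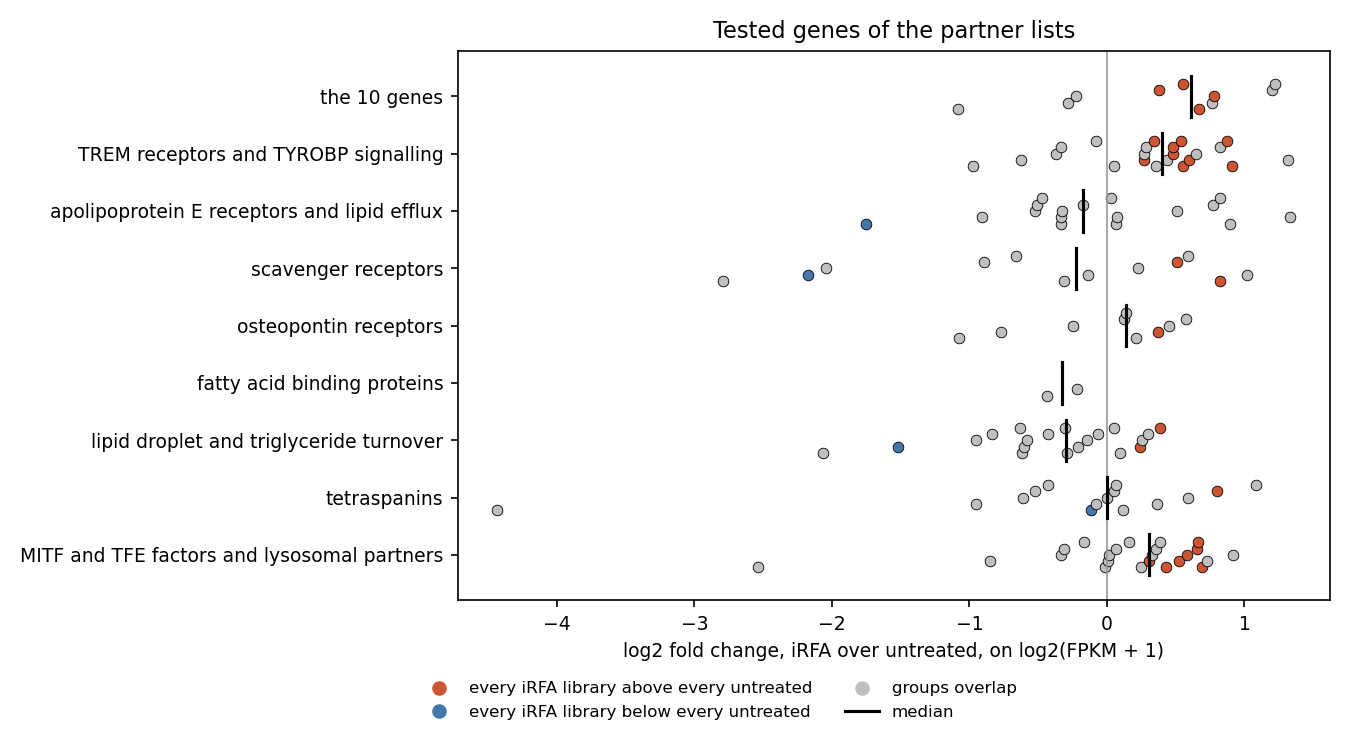
Log2 fold change (iRFA against untreated, on log2(FPKM + 1)) of the 10 genes and of each tested gene of the 8 partner lists, with 1 point per gene, the median as a line and genes without overlap in color. The list medians run from −0.33 for fatty acid binding proteins to 0.40 for TREM receptors and TYROBP signalling, and 0 genes passed the test.

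**Figure D3:**
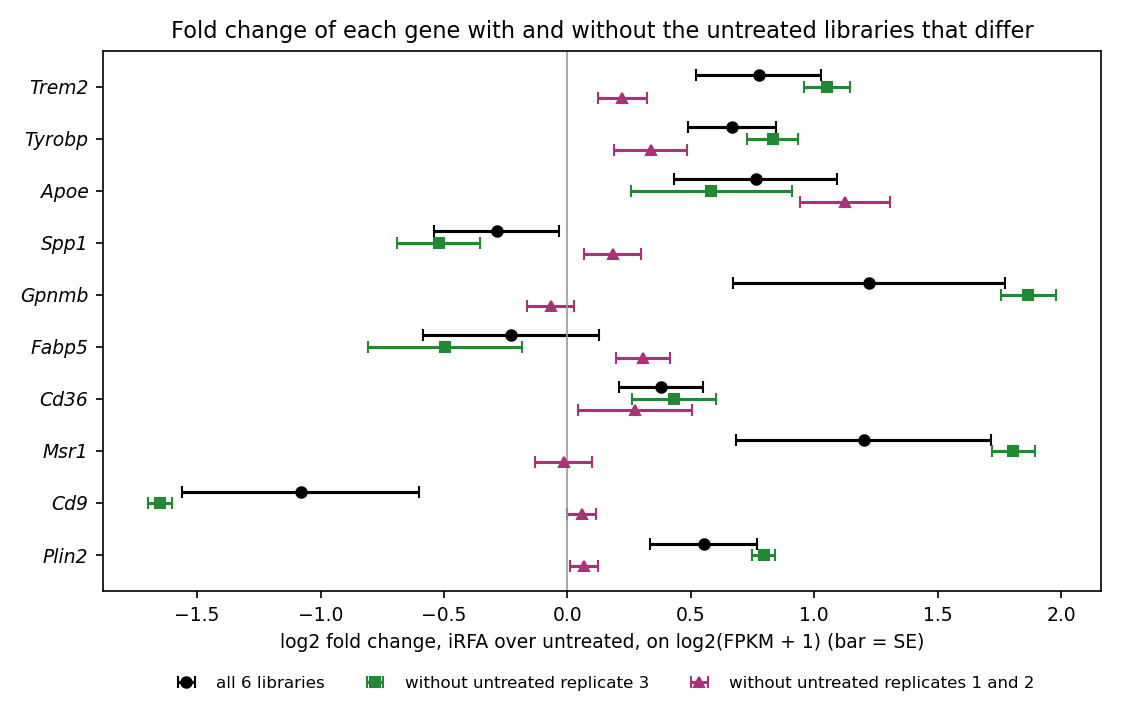
Log2 fold change of each of the 10 genes (horizontal axis, on log2(FPKM + 1)), with its standard error as a bar, from all 6 libraries, without untreated replicate 3 and without untreated replicates 1 and 2. Gpnmb, Msr1 and Cd9 are at 1.87, 1.81 and −1.65 without untreated replicate 3 and at −0.07, −0.02 and 0.06 against it alone.

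The genes were next set against 14 core macrophage markers by subtracting, in each library, the mean log2(FPKM + 1) of those markers. That mean was 5.44, 5.43 and 6.20 untreated and 6.39, 6.40 and 6.43 after iRFA, so this scaling moved the median log2 fold change of all genes to −0.70. On this scale 0 of the 10 genes were higher and 2, Cd9 and Plin2, lower without overlap, beside 0.18% and 66.2% of all genes tested. On the same scale 0 passed the test, and at an unadjusted p under 0.05 in limma 0 were higher and 1, Cd9, lower, beside 0.154% and 58.6% of all genes. Trem2 followed the markers most closely with Plin2: its relative level ran from −2.47 to −2.24, a range of 0.24 over 6 libraries, and the difference between groups was 0.06 (95% interval −0.28 to 0.39). Tyrobp differed by −0.05 (interval −0.40 to 0.29). Plin2 differed by −0.17 with a range of 0.22. Relative Cd9 was at 1.82 and 1.81 in untreated replicates 1 and 2, at −0.66 in untreated replicate 3 and between −0.83 and −0.79 after iRFA, a difference of −1.80 (limma adjusted p = 0.08185). Spp1 differed by −1.01 and Fabp5 by −0.95, Gpnmb by 0.50 and Msr1 by 0.48, and Cd36 by −0.34, all with overlapping groups. Relative Apoe ranged over 1.86 among the 6 libraries with a group difference of 0.04.

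**Figure D4:**
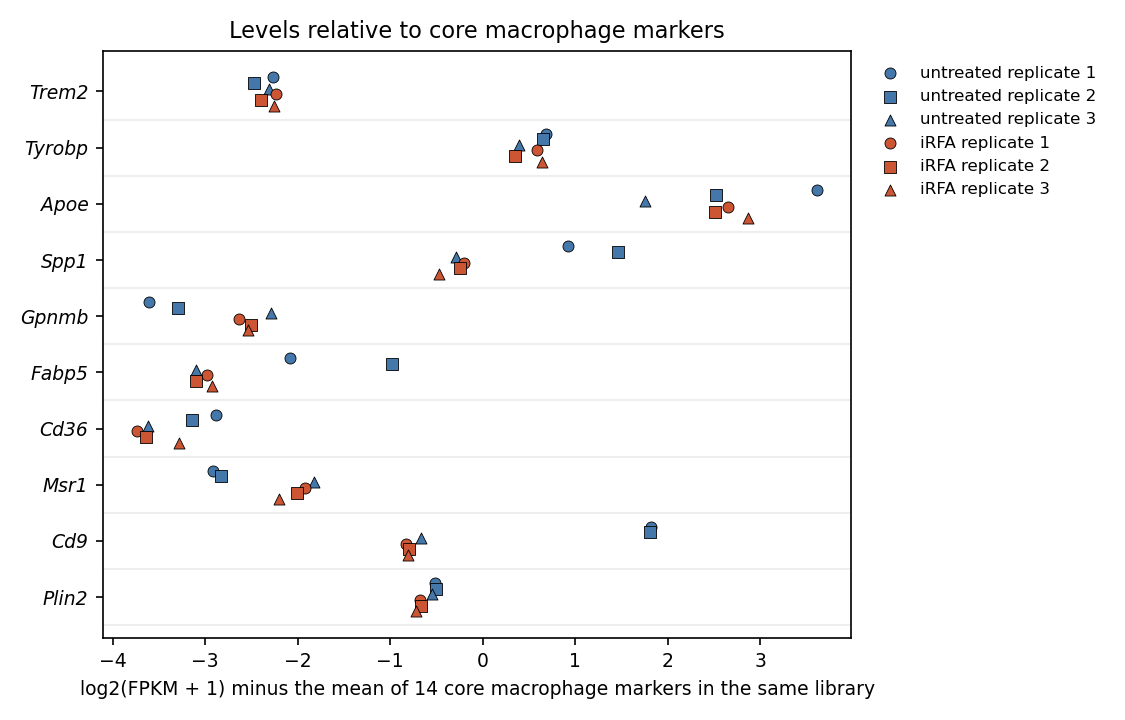
Log2(FPKM + 1) of each gene minus the mean of the 14 core macrophage markers in the same library, with 1 point per library. Trem2 and Plin2 stay within ranges of 0.24 and 0.22, and Cd9 spans 2.65.

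By mean level, the order after iRFA was Apoe, Tyrobp, Spp1, Plin2, Cd9, Msr1, Trem2, Gpnmb, Fabp5 and Cd36, and no neighbours in that order overlapped between libraries. In the untreated group the order was Apoe, Cd9, Spp1, Tyrobp, Plin2, Fabp5, Msr1, Trem2, Gpnmb and Cd36. There Cd9 overlapped with Spp1, Spp1 with Tyrobp, and each gene from Fabp5 down with the next. The coefficient of variation was 1.18% to 21.5% after iRFA and 13.3% to 96.4% untreated, with Cd36 the gene of the highest value after iRFA and of the lowest value untreated.

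**Figure D5:**
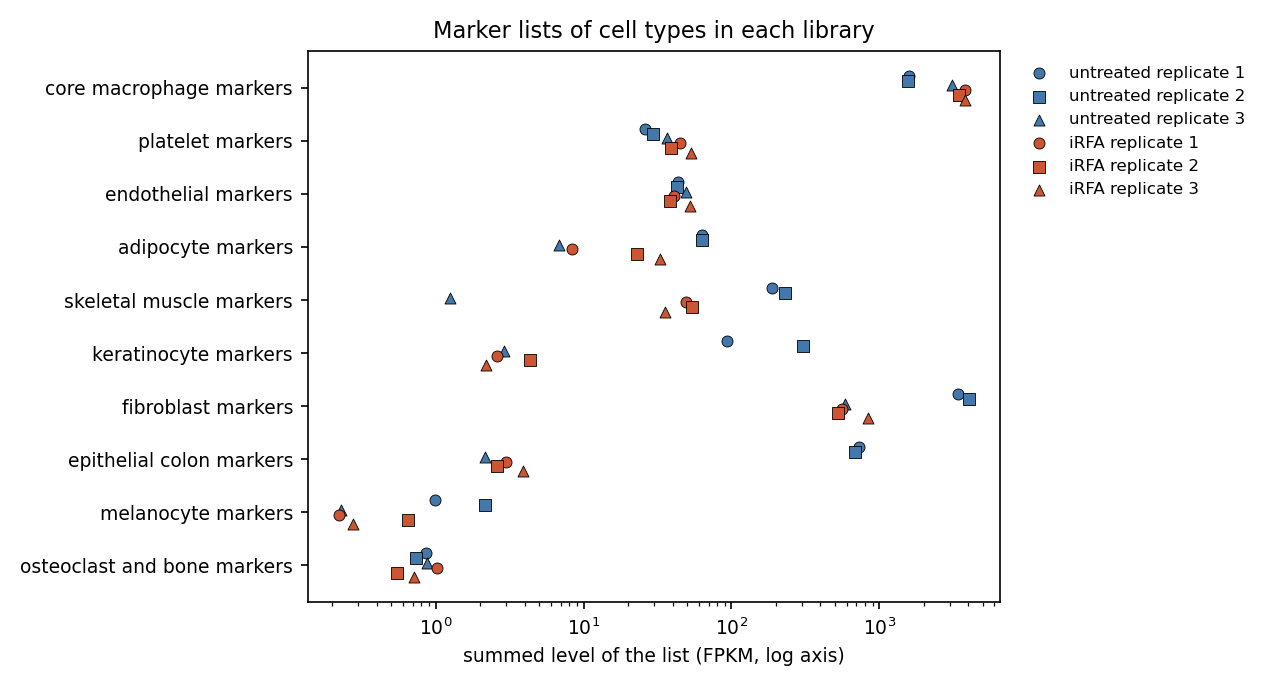
Summed FPKM of 10 of the cell marker lists (horizontal log axis), with 1 point per library. Epithelial colon markers stand at 725 and 680 FPKM in untreated replicates 1 and 2 and at 2.15 to 3.87 FPKM in the other 4 libraries.

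Markers of other leukocytes summed to lower levels than those of macrophages. The lists differ in genes and in length, so these sums do not compare numbers of cells. Monocyte markers summed to 326, 322 and 504 FPKM untreated and to 407, 385 and 374 FPKM after iRFA, led by Fn1, which fibroblasts make too. T and NK cell markers summed to 20.6 to 48.9 FPKM untreated and to 22.1 to 38.5 FPKM after iRFA, with Trac at 17.8 and 18.8 FPKM in untreated replicates 1 and 2 and at 5.02 to 10.1 FPKM elsewhere. Neutrophil markers summed to no more than 20.8 FPKM in any library, and B and plasma cell markers to 3.26 to 6.96 FPKM and to 2.63 to 5.22 FPKM. Lyz2, the lysozyme of macrophages and other myeloid cells, was at 492, 486 and 1427 FPKM untreated and at 1750, 1540 and 1734 FPKM after iRFA, the order seen for Trem2.

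Genes most like each of the 10 were sought among the 5703 tested genes that average 10 FPKM or more, by Pearson r over the 6 libraries. The libraries fall into clusters, so high values of r are common, and they are given as a description. Tyrobp was most like Ctss (r = 0.997), and Trem2 most like the interferon-induced gene Oas1a (r = 0.998). Apoe was most like Pphln1 (r = 0.995), then Nucb2 and the sterol synthesis gene Fdft1 (r = 0.957 and 0.956). Fabp5 was most like the ubiquitin ligase gene Nedd4 (r = 0.968), Spp1 like the muscle enolase Eno3 (r = 0.981) and Cd36 like the apoptosis inhibitor Birc2 (r = 0.991). For Gpnmb, Msr1, Cd9 and Plin2, the values of r with Ncln, Snrnp40, Myo18a and Rpl7 were at least 0.999.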

How the data were processed

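RNA-seq libraries of 3 untreated and 3 iRFA tumors were analysed. The authors deposited FPKM values per gene, and the submitters' processing notes name FastQC, HISAT2, StringTie and the build GRCm38, with no versions. Read counts were not used here, so counting error is unknown and no count test was made. FPKM values were transformed to log2(FPKM + 1), genes with a mean under 0.5 FPKM were left out, and the 2 groups were fitted in limma (version 3.58.1, R 4.3.3) with a mean-variance trend, two-sided and with Benjamini-Hochberg adjustment. A fold change on this scale understates the change of low genes. The script was tested on simulated data in which every library had the spread of the iRFA libraries. The untreated libraries spread more widely (median SD of genes tested 0.29 against 0.096 on the log2 scale), so that test does not cover them. The 10 genes, the 8 partner lists and the 14 marker lists were chosen with earlier results of these data known. Named genes were all 10, in each partner list up to 2 of highest mean and up to 3 of largest fold change without overlap, in each marker list the 2 of highest mean, and the 3 genes most like each of the 10; Plin3 was added as a reference for Plin2. One gene that this rule names is not reported here. Promoters came from RefSeq (7 of 10 genes matched), gene positions from GENCODE mouse release M21, and similar transcripts from blastn 2.17.0. Alternatives were other pseudocounts, filters and scalings, a replicate block, leaving out each library, and, added after seeing the data, leaving out untreated replicates 1 and 2.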

Additional observations from a re-analysis of the deposited data

How the results depend on the processing

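Of 160 values of the 10 genes under the alternatives, 144 kept their direction and their side of the threshold, 7 passed it and 9 turned. Leaving out 1 library at a time gave 0 to 9980 genes called, of 15560 tested. Of the 10 genes 0 to 7 were called, and of the 120 partner genes tested 0 to 90. Each highest value was reached without untreated replicate 3. In these settings 4 to 6 of the 10 were higher and 0 to 2 lower without overlap. Among all 15560 genes tested, 1946 to 6378 were higher and 1788 to 5683 lower in this way. Leaving out untreated replicates 1 and 2 was chosen after seeing the data. In that setting 8 of the 10 were higher and 1 lower without overlap, beside 25.7% and 28.6% of all genes tested. The log2 fold changes were then 0.18 for Spp1, −0.0677 for Gpnmb, 0.31 for Fabp5, −0.0151 for Msr1 and 0.0585 for Cd9. Without untreated replicate 2, Fabp5 was at 0.18, within a leave-one-out range of −0.49 to 0.18. Rescaled to equal sums, 3 of the 10 were higher and 0 lower without overlap, beside 1416 and 1991 of the 15560 genes tested. Relative to the core macrophage markers, 0 of the 10 were higher and 2 lower without overlap, beside 0.18% and 66.2% of all genes tested. On that scale Tyrobp was at −0.0522, Cd36 at −0.34 and Plin2 at −0.17. The cause of these changes was not tested.

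Replicate numbers were not taken as pairs. Deviations of same-numbered libraries from their group means correlated at −0.09, −0.11 and −0.23. The untreated deviations mostly follow the split of untreated replicate 3 from replicates 1 and 2, so this check could neither show nor exclude a pairing. With the replicate block, limma called 0 genes, and 1156 had an unadjusted p under 0.05, against 0 and 2286 without it. Single libraries per tumor and unknown read counts limit the precision of low genes such as Cd36.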

Other observations

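Some genes outside the 10 had levels that stood out and were chosen after their values were seen. The tetraspanin Tspan8 reached 123 and 111 FPKM in the first and second untreated libraries and stayed at no more than 0.236 FPKM in the other 4 libraries. Lpl, the lipoprotein lipase of fat cells, muscle and macrophages, was at 29.2 and 29.6 FPKM in the same 2 libraries and at 1.16 to 2.66 FPKM elsewhere. Cx3cr1, the fractalkine receptor, was at 51.3 FPKM in iRFA replicate 2 and at 13.9 and 14.3 FPKM in the other iRFA libraries. Skeletal muscle markers summed to 187, 230 and 1.25 FPKM in the untreated tumors and to 49.6, 54.0 and 35.4 FPKM after iRFA.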
